A study of Homo sapiens with 18 samples.

Results

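The genes described here encode collagen chains, laminin chains and a small group of matrix glycoproteins and modifiers: fibronectin (FN1), fibulins (FBLN1, FBLN2), the latent TGF-beta binding protein LTBP1 and the collagen cross-linking enzyme LOXL4. They were chosen by symbol among the protein-coding genes of the deposited count table, leaving out names with a hyphen and a few collagen chains set aside for this work. The rule gave 59 genes of the 41285 in the table. The rule itself uses no measured value, but the members were chosen with earlier results of these data known. The collagens and laminins follow from name patterns, while FN1, FBLN1, FBLN2, LTBP1 and LOXL4 were named one by one.

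Collagen chains wind into triple helices that assemble into fibrils, sheet-like networks or beaded filaments outside the cell. Each laminin is a trimer of an alpha, a beta and a gamma chain and, with type IV collagen, forms the basement membrane. Fibronectin links this matrix to integrins at the cell surface, and lysyl oxidases such as LOXL4 cross-link it. Blood cells in suspension lay down little matrix, while marrow stroma and megakaryocytes are known sources of it.

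The study measured mRNA in K562, a leukaemia line established from a patient with chronic myeloid leukaemia that grows in suspension. There were 9 groups of 2 libraries each, in 3 lines that the submitters call isogenic. Parental K562 was untreated or given IFN-alpha. The VPR-D9 line, in which doxycycline induces dCas9-VPR (a catalytically dead Cas9 fused to an activator), was untreated or in the groups coded D2000 and D6, both labelled as given doxycycline alone. The KRAB-D9 line, in which doxycycline induces dCas9-KRAB (a dead Cas9 fused to a repressor), was untreated or given IFN-alpha, doxycycline, or both. The treatment protocol gives doxycycline at 2 µg/mL and IFN-alpha at 1000 U/mL for 24 hours, and no label ties the D2000 or D6 group to a dose. In KRAB-D9 doxycycline was started 24 hours before IFN-alpha and kept on with it. What D2000 and D6 stand for, the length of doxycycline treatment without IFN-alpha and whether each engineered line is 1 clone are not stated in the labels. No parental group given doxycycline was analysed here, so an effect of doxycycline itself and an effect of the induced protein cannot be told apart. Nothing in the labels says whether both libraries of a group were grown separately, so the p-values measure the spread between these libraries, which may be technical.

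SAMD9, the gene that the study is about, is the target to which guide RNAs direct dCas9 in VPR-D9 and KRAB-D9. Levels are given as CPM, the read count relative to library size, after TMM scaling. SAMD9 was at 9.18 ± 0.183 CPM in untreated parental cells (SD, n = 2) and at 161 ± 9.26 with IFN-alpha. It was at 60.6 ± 1.08 CPM in untreated VPR-D9, at 961 ± 19.0 in D2000 and at 948 ± 17.3 in D6. It was at 0.557 ± 0.273 CPM in untreated KRAB-D9, at 0 and 0.117 CPM in the 2 doxycycline libraries, at 54.2 ± 1.08 with IFN-alpha and at 0.797 ± 0.0735 with doxycycline and IFN-alpha. Libraries held 32.7 M to 63 M counts. The KRAB-D9 group given IFN-alpha alone was the least even, with a variance between its libraries 23.5 times counting noise against 5.11 to 8 times in the other groups. Of 9 fibroblast and stromal markers 2 (S100A4 and TAGLN) averaged 1 CPM or more, while DCN, LUM, PDGFRA, PDGFRB, THY1, POSTN and ACTA2 averaged less. All 10 erythroid markers that K562 is known for averaged at least 1 CPM, and their summed level ran from 671 CPM in D2000 to 4085 CPM in KRAB-D9 given doxycycline and IFN-alpha.

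Most of the matrix genes were barely transcribed. Of the 59, 42 passed the filter on low counts (71.2%, against 53.6% of all genes in the table), and 27 reached a mean of 1 CPM in at least 1 group. The other 17 never exceeded a group mean of 0.253 CPM, and 12 of those had 0 counts in most libraries. Among them were FBLN1, with 5 counts over all 18 libraries, and COL4A1, with 13 counts in 3 libraries. Of the laminin gamma chains, LAMC1 was highest in untreated parental cells at 0.410 ± 0.209 CPM (SD, n = 2), while LAMC3 stayed at or under 0.220 CPM. Since a low gene passes the filter through the group where it is high, counts over the genes that passed are given below only as a description.

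Divided by the deposited gene length, so that levels can be set side by side, a few genes stood above the rest. The order depends on those lengths. LAMB1 was given 18592 bases, against 8140 exon bases in the GENCODE release used below for shared exons. The shorter length would raise its level per kilobase and could raise its place. For LAMA5 both sources gave 14291 bases, and for COL18A1 they gave 8464 and 8525. The order with other lengths was not tested. In untreated parental cells LTBP1 was highest at 8.21 ± 0.205 CPM per kilobase (SD, n = 2), followed by the laminin chain LAMA5 at 5.59 ± 0.400. COL6A5 (3.70 ± 0.0814), the multiplexin COL18A1 (3.60 ± 0.316) and FN1 (3.58 ± 0.161) came next, and neighbours in that order overlapped between libraries. In untreated VPR-D9 the order was led by COL18A1 at 9.83 ± 0.264 CPM per kilobase, then LAMA5 at 6.03 ± 0.157 and COL6A5 at 4.30 ± 0.0568, each above the next without overlap. LTBP1 was at 0.357 ± 0.0416 there. In untreated KRAB-D9 COL18A1 led at 26.1 ± 0.785 CPM per kilobase, followed by LTBP1 at 6.56 ± 0.0309. Within families the levels were uneven, as the plot of laminin, type IV and type VI chains by gene shows. The beta chains LAMB1 (0.984 to 1.49 CPM per kilobase over the 3 untreated groups) and LAMB2 (1.56 to 2.58) were well above the gamma chains LAMC1 and LAMC3.

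**Figure D1:**
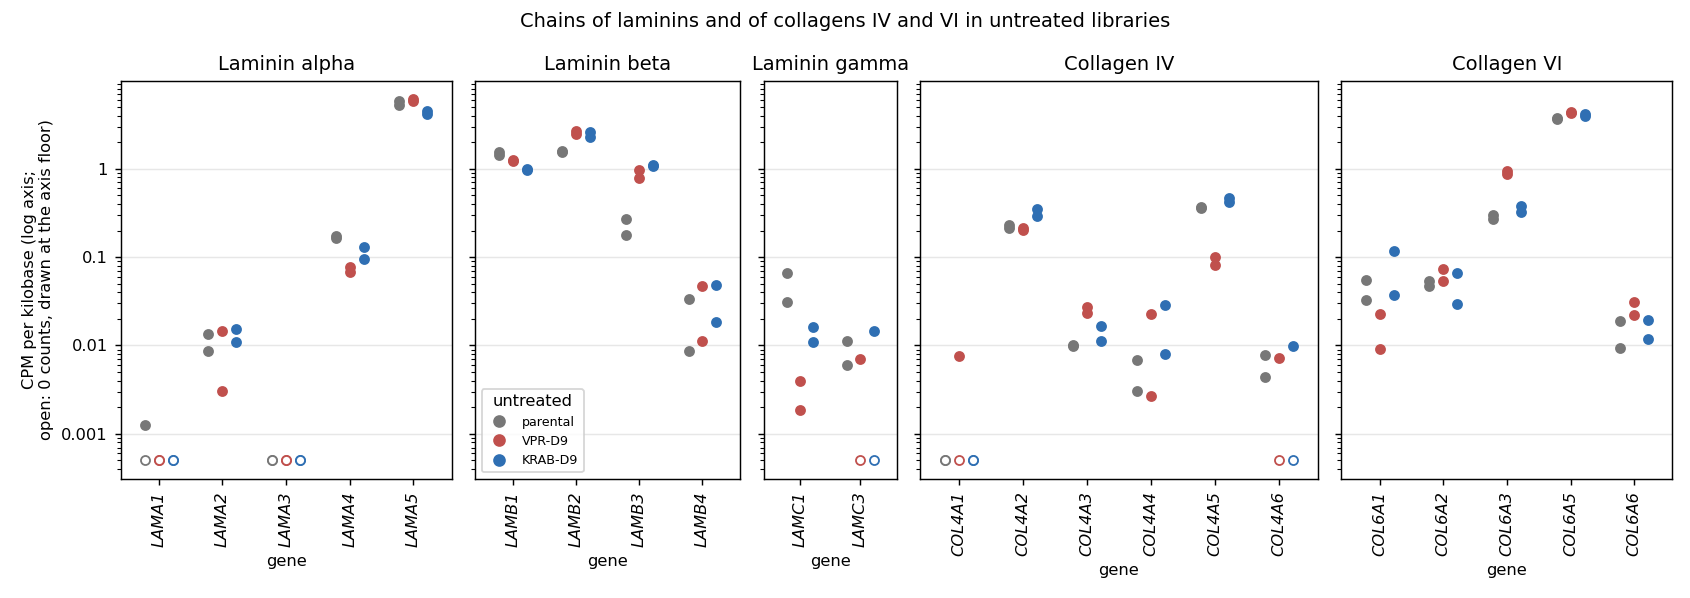
Levels of laminin chains and of type IV and type VI collagen chains in CPM per kilobase of gene length (log axis), in the 2 untreated libraries of each line; each point is 1 library, grey for parental, red for VPR-D9 and blue for KRAB-D9, and open points are libraries with 0 counts. LAMA5, LAMB1, LAMB2 and COL6A5 lie near or above 1 CPM per kilobase, and LAMC1 and LAMC3 lie under 0.1 in every library shown. Gene lengths are those deposited with the counts, and a shorter length would place LAMB1 higher.

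Doxycycline in KRAB-D9 moved 15 of the 42 tested matrix genes past the threshold of edgeR's quasi-likelihood test (adjusted p under 0.05), 8 higher and 7 lower. Over all 22143 genes tested, 12% were called higher and 12.7% lower. With IFN-alpha present, 12 were called (6 higher, 6 lower), against 10.4% and 11.9% of all genes. In VPR-D9 the D2000 group had 22 called, 16 higher and 6 lower, against 21.9% and 24.2% of all genes. The 4 tested genes that the rule names one by one were chosen with earlier results of these data known. They were all called here and with doxycycline in KRAB-D9. The counts of 15 and 22 include them and are only a description. Over the 42 tested members the median log2 fold change was 0.57, against 0.06 over all genes. That median is likewise only a description, since low genes that are highest in D2000 can pass the filter through that group. The D6 group had 5 called (3 higher, 2 lower), against 3.19% and 3.41%. D6 against D2000 called 6 higher and 13 lower, against 21.7% and 18.8%. IFN-alpha called LAMB1 alone in parental cells, against 3.03% of all genes higher and 1.31% lower. It called LAMB1 and COL6A5 in KRAB-D9, both higher, against 3.98% and 2.42%, and with doxycycline present it called COL3A1 alone, higher, against 3.12% and 1.77%. Between untreated lines, 12 members had higher calls and 5 lower calls for KRAB-D9 against parental cells (14.2% and 14.3% of all genes), and 9 higher and 11 lower in VPR-D9 (18.5% and 18.2%). With libraries scaled by their totals in place of TMM, the D2000 calls over all genes shifted from 47.6% to 68.6% higher, and those over the matrix genes from 16 higher and 6 lower to 18 and 5. That scaling raised the median of all genes in D2000 by 0.23 on the log2 scale. It also moved the share of higher calls over all genes from 46.7% to 61.4% for doxycycline with IFN-alpha, from 48.4% to 69% for D6 and from 53.6% to 31.2% for D6 against D2000, where the matrix genes went from 31.6% to 22.7%.

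**Figure D2:**
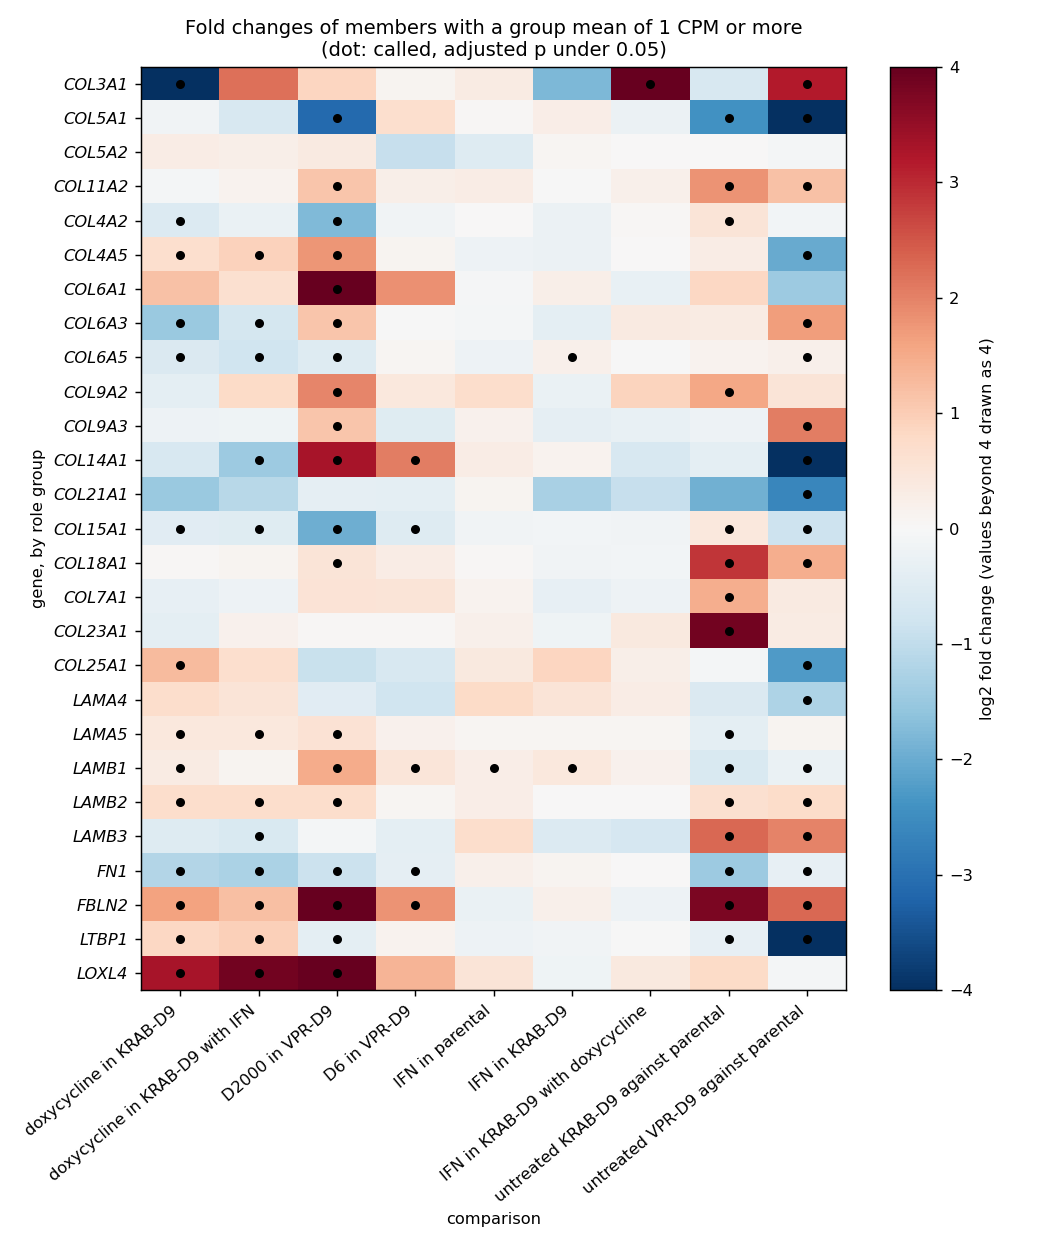
Log2 fold changes of the 27 genes with a group mean of at least 1 CPM (rows, ordered by role) in 9 comparisons (columns); red is higher and blue lower in the first-named group, values beyond 4 are drawn as 4, and a dot marks an adjusted p under 0.05. The 3 IFN columns hold 4 dots, for LAMB1 (2), COL6A5 and COL3A1. For COL3A1, which had 0 counts in KRAB-D9 given doxycycline, the colour depends on the prior count of the fit.

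LOXL4 and FBLN2 rose in both engineered lines, from levels near 0. LOXL4 (ENSG00000138131.4, chr10:98247690-98268194), a lysyl oxidase that cross-links collagen and elastin, was at 0.225 and 0.364 CPM in the 2 untreated KRAB-D9 libraries and at 2.69 and 2.99 with doxycycline. In VPR-D9 it was at 0.284 and 0.0474 CPM untreated, at 18.7 and 15.9 in D2000, and at 0.618 and 0.209 in D6. The D2000 libraries were thus far above every other library, and untreated and D6 libraries overlapped. The log2 fold change was 3.29 ± 0.43 (standard error) for doxycycline in KRAB-D9 (adjusted p = 1.27e-06) and 6.71 ± 0.42 for D2000 (adjusted p = 3.29e-13). With IFN-alpha present, doxycycline raised LOXL4 from 0.387 and 0.176 CPM to 3.69 and 3.74 (3.85 ± 0.44, adjusted p = 1.97e-07). FBLN2 (ENSG00000163520.14, chr3:13549125-13638422), a fibulin of basement membranes and elastic fibres, was at 0.218 and 0.174 CPM in untreated VPR-D9 and at 9.65 and 10.6 in D2000, a log2 fold change of 5.68 ± 0.39 (adjusted p = 1.47e-15). In D6 it was at 0.927 and 0.418 CPM (1.78 ± 0.45, adjusted p = 0.00839), a call lost without untreated VPR-D9 replicate 1 (1.95, adjusted p = 0.0557), untreated replicate 2 (1.63, adjusted p = 0.119) or D6 replicate 1 (1.09, adjusted p = 0.405). Doxycycline in KRAB-D9 took it from 0.281 and 0.841 CPM to 1.83 and 1.48 (1.60 ± 0.36, adjusted p = 0.000796), with no overlap between the groups. The KRAB-D9 call was lost without untreated KRAB-D9 replicate 1, where the log2 fold change was 0.98 (adjusted p = 0.0845), and it was 2.55 without replicate 2. With IFN-alpha present FBLN2 went from 0.515 and 0.703 to 1.54 and 1.32 CPM (1.19 ± 0.37, adjusted p = 0.0142). That call did not hold without KRAB-D9 IFN replicate 1 (1.02, adjusted p = 0.0805) or without doxycycline and IFN replicate 1 (1.08, adjusted p = 0.0894).

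Since these 2 genes moved together in both lines, their promoters are shown. Of the 59 genes, 46 had at least 1 window in the RefSeq promoter table (GRCh38.p14), 63 windows in all, each running from 250 bases before to 50 bases after a start site. The LOXL4 window (chr10:98268145-98268444, minus strand) and the upstream of 2 FBLN2 windows (chr3:13548875-13549174, plus strand) follow 5′ to 3′, with capitals marking the GC box GGGCGG or its reverse complement:
LOXL4: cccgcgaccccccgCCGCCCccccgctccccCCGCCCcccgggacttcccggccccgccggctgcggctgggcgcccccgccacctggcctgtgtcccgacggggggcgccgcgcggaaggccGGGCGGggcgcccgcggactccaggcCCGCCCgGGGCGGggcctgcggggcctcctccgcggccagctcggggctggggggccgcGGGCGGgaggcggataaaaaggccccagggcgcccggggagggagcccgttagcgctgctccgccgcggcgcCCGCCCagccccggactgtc
FBLN2: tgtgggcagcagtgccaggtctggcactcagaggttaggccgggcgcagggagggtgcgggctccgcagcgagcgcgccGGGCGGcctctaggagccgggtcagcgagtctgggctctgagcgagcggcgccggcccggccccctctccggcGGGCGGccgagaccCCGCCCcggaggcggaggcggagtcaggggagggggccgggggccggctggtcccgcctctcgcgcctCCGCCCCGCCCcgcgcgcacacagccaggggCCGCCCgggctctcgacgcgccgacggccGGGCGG
Each held 7 matches to the GC box, overlapping matches included, and no match to TATAAA or CCAAT on either strand. Only these exact strings were searched, so near matches such as GATAAA in the LOXL4 window are not counted. The GC box occurred in 45% of all 35116 windows in the table, TATAAA in 11.5% and CCAAT in 34.6%. LOXL4 had 45 CpG dinucleotides and FBLN2 43, where 3.48% and 4.98% of all windows had as many or more. The core of the interferon-stimulated response element, GAAA repeated after a gap of 2 bases, matched neither. Over the 63 windows of the matrix genes it matched 2, of LTBP1 and COL17A1, or 3.17%, against 3.57% of all windows.

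Fibronectin fell in every doxycycline comparison. FN1 (ENSG00000115414.21, chr2:215360440-215436073) was at 63.6 and 59.7 CPM in untreated parental cells and at 71.3 and 70.0 with IFN-alpha. In KRAB-D9 it was at 20.7 and 24.6 CPM untreated and at 10.7 and 9.17 with doxycycline, without overlap (log2 fold change -1.18 ± 0.10, adjusted p = 3.71e-11). With IFN-alpha present it was at 21.0 and 26.9 CPM without doxycycline and at 9.68 and 10.5 with it (-1.26 ± 0.10, adjusted p = 7.99e-12). In VPR-D9 it went from 49.4 and 48.2 CPM to 25.0 and 28.5 in D2000 (-0.87 ± 0.09, adjusted p = 1.87e-10) and to 38.8 and 37.9 in D6 (-0.35 ± 0.09, adjusted p = 0.00909). The D6 call was lost when any 1 of the 4 libraries was left out (adjusted p from 0.0573 to 0.109), with log2 fold changes of -0.37 to -0.33. Both untreated engineered lines were below parental cells, KRAB-D9 with a log2 difference of -1.45 ± 0.09 (adjusted p = 5.86e-15) and VPR-D9 with -0.34 ± 0.08 (adjusted p = 0.00152).

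LTBP1 rose with doxycycline in KRAB-D9, while in VPR-D9 it was low throughout and its lower call in D2000 was not stable. LTBP1 (ENSG00000049323.16, chr2:32946953-33399509), which holds latent TGF-beta in the matrix, was at 48.0 and 48.3 CPM in untreated KRAB-D9 and at 84.1 and 88.7 with doxycycline (0.84 ± 0.07, adjusted p = 2.75e-12). With IFN-alpha present it rose from 42.4 and 45.6 to 81.2 and 87.9 CPM (0.94 ± 0.07, adjusted p = 2.34e-13). In VPR-D9 it was low in every library: 2.41 and 2.84 CPM untreated, 2.23 and 1.76 in D2000, and 3.20 and 2.53 in D6. Untreated VPR-D9 was 22.9-fold below untreated parental cells, which were at 59.2 and 61.4 CPM (log2 -4.52 ± 0.09, adjusted p = 1.22e-31). The D2000 value was -0.40 ± 0.13 (adjusted p = 0.0137). That call was lost without untreated VPR-D9 replicate 2 (-0.27, adjusted p = 0.216), without D2000 replicate 2 (-0.24, adjusted p = 0.232), with scaling by library totals (-0.17, adjusted p = 0.335) and in a fit of only the 2 groups (adjusted p = 0.17). The higher level in D6 than in D2000 (0.52 ± 0.14, adjusted p = 0.00179) was likewise lost without D2000 replicate 2 (0.37, adjusted p = 0.0655), without D6 replicate 1 (0.34, adjusted p = 0.135), with library totals (0.33, adjusted p = 0.0531) and in a fit of only the 2 groups (adjusted p = 0.0728).

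**Figure D3:**
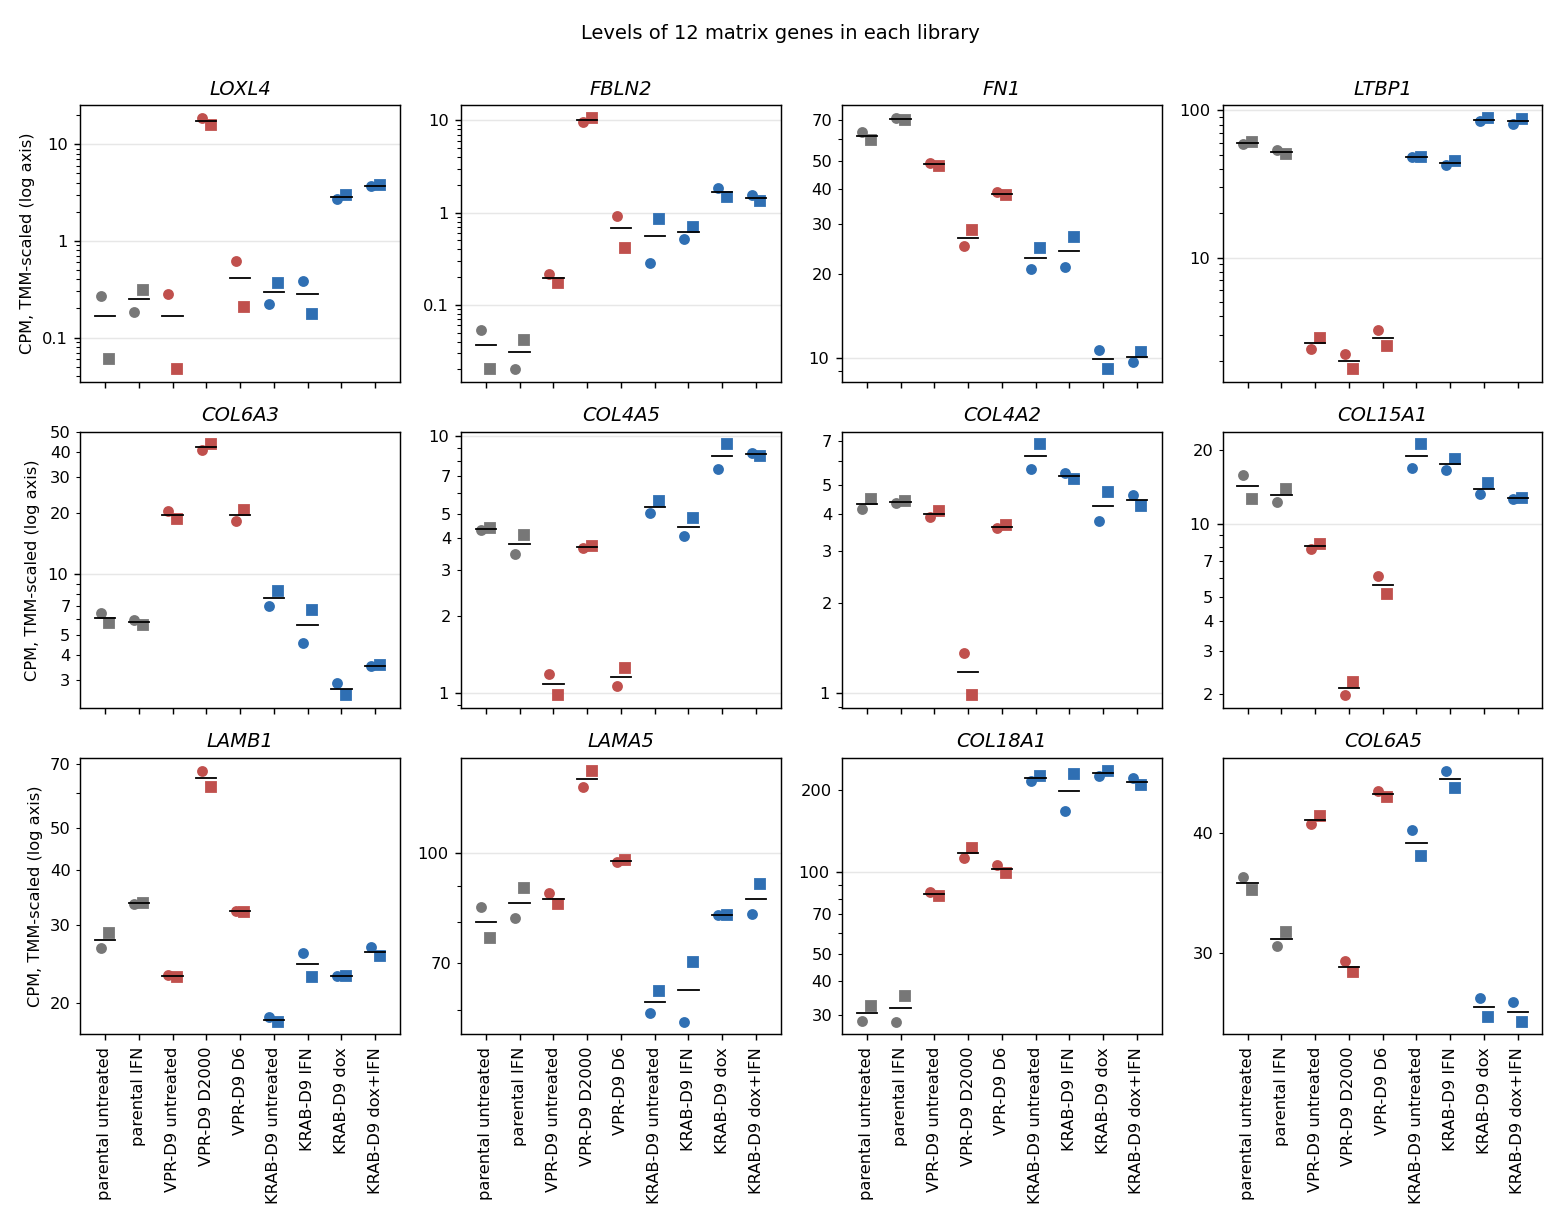
TMM-scaled CPM (log axis, a scale of its own in each panel) of 12 matrix genes in every library; circles are replicate 1, squares replicate 2, bars the mean of 2 libraries, grey parental, red VPR-D9 and blue KRAB-D9. LOXL4 and FBLN2 stand highest in D2000, LTBP1 is at 1.76 to 3.20 CPM in all VPR-D9 libraries, and FN1 is lowest in KRAB-D9 with doxycycline.

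Type IV collagen chains are encoded by 3 pairs of genes that face away from each other across a shared start region. In these data the pairs were lopsided: COL4A2 was transcribed with almost no COL4A1, and COL4A5 with almost no COL4A6. The RefSeq start sites of COL4A1 and COL4A2 lie 127 bases apart on chromosome 13, and those of COL4A5 and COL4A6 lie 380 bases apart on chromosome X. COL4A4 and COL4A3 start 419 bases apart on chromosome 2. The windows of the 2 transcribed genes, COL4A2 (chr13:110307034-110307333, plus strand, which also holds the start of COL4A1) and COL4A5 (chrX:108439588-108439887, plus strand), are shown because only 1 gene of each pair was detected at more than a trace, with the GC box in capitals:
COL4A2: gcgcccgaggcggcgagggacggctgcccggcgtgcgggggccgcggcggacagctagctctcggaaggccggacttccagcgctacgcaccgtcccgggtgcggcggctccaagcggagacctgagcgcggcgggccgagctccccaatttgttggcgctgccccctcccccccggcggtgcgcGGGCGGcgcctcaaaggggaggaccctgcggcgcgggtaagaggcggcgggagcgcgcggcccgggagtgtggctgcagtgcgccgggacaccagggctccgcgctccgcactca
COL4A5: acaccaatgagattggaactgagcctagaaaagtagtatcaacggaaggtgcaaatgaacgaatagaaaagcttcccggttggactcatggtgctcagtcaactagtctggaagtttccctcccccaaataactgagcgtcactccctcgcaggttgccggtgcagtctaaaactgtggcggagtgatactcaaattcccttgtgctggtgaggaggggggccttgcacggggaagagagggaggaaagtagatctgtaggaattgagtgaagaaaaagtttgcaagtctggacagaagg
The COL4A2 window held 45 CpG dinucleotides, 1 GC box and 1 CCAAT, and the COL4A5 window held 8, 0 and 2. Among all windows in the reference, 3.48% had at least as many CpG as the former and 60.7% at least as many as the latter.

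The 2 transcribed type IV chains moved in opposite directions in D2000. COL4A2 (ENSG00000134871.19, chr13:110305812-110513209) was at 3.88 and 4.09 CPM in untreated VPR-D9 and at 1.36 and 0.984 in D2000, without overlap (-1.76 ± 0.20, adjusted p = 1.14e-09). In D6 it was at 3.57 and 3.65 CPM. Its log2 fold change with doxycycline in KRAB-D9 was -0.55 ± 0.18 (adjusted p = 0.0223), from 5.64 and 6.82 to 3.77 and 4.74 CPM. That call was lost without untreated KRAB-D9 replicate 2 (-0.41, adjusted p = 0.221) or doxycycline replicate 1 (-0.39, adjusted p = 0.249). With IFN-alpha present COL4A2 was at 5.48 and 5.22 CPM without doxycycline and 4.62 and 4.23 with it, which was not called (-0.27 ± 0.18, adjusted p = 0.344). COL4A5 (ENSG00000188153.14, chrX:108439838-108697545), a chain of kidney and other specialised basement membranes, rose in D2000 from 1.19 and 0.979 to 3.66 and 3.75 CPM (1.77 ± 0.20, adjusted p = 6.92e-10). It was at 1.06 and 1.25 CPM in D6. In KRAB-D9 it went from 5.04 and 5.59 to 7.44 and 9.31 CPM with doxycycline (0.66 ± 0.17, adjusted p = 0.00299), and from 4.09 and 4.81 to 8.63 and 8.40 with IFN-alpha present (0.92 ± 0.17, adjusted p = 6.98e-05). The first of these was lost without untreated replicate 1 (0.58, adjusted p = 0.0515) or doxycycline replicate 2 (0.48, adjusted p = 0.104). Of the other type IV genes, COL4A3, COL4A4 and COL4A6 stayed under a group mean of 0.5 CPM and none was called in any comparison. COL4A2 and COL4A1 overlap in the table, and the strand setting of the counting is not given in the sources used here.

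Type VI collagen filaments need an alpha 1, an alpha 2 and one further chain such as alpha 3. COL6A3 (ENSG00000163359.17, chr2:237324003-237414328) moved in opposite directions in the 2 lines: it fell with doxycycline in KRAB-D9, from 6.99 and 8.25 to 2.93 and 2.54 CPM (-1.48 ± 0.15, adjusted p = 3.45e-10). It rose in D2000 from 20.4 and 18.7 to 40.7 and 43.6 CPM (1.11 ± 0.11, adjusted p = 5.66e-11), while D6, at 18.3 and 20.6, overlapped with untreated cells. With IFN-alpha present its log2 fold change with doxycycline was -0.71 ± 0.15 (adjusted p = 0.000294), from 4.57 and 6.69 to 3.52 and 3.56 CPM, and without KRAB-D9 IFN replicate 2 it was -0.37 (adjusted p = 0.162). COL6A1, the alpha 1 chain, went from 0.0502 and 0.126 CPM to 1.77 and 2.13 in D2000 (4.42 ± 0.62, adjusted p = 1.12e-07) and was at 0.347 and 0.292 in D6. COL6A2 stayed at or under a group mean of 0.383 CPM and was not called in any comparison. COL6A5 (ENSG00000172752.14), an alternative to alpha 3 in that place and one of the most abundant members, ran between 25.4 and 46.4 CPM over the 18 libraries. Doxycycline lowered it in KRAB-D9 from 40.2 and 37.8 to 27.0 and 25.7 CPM (-0.57 ± 0.07, adjusted p = 1.6e-08) and from 46.4 and 44.5 to 26.7 and 25.4 with IFN-alpha present (-0.80 ± 0.07, adjusted p = 5.08e-12). It was also lower in D2000, at 29.4 and 28.6 CPM against 40.8 and 41.6 (-0.51 ± 0.07, adjusted p = 1.85e-08; -0.28 with library totals, adjusted p = 0.000459).

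Of the laminin chains, 3 were abundant enough to follow closely, and all 3 rose with D2000. LAMB1 (ENSG00000091136.15, chr7:107923799-108003213) was at 23.1 and 22.8 CPM in untreated VPR-D9, at 67.5 and 62.1 in D2000 (1.49 ± 0.07, adjusted p = 3.18e-20) and at 32.4 and 32.2 in D6 (0.49 ± 0.07, adjusted p = 1.07e-05). No libraries of these 3 groups overlapped, and D6 lay between the other two. In KRAB-D9 it went from 18.5 and 18.1 to 23.0 and 23.0 CPM with doxycycline (0.33 ± 0.08, adjusted p = 0.00114), and with IFN-alpha present from 26.0 and 22.9 to 26.8 and 25.5, which was not called (0.10 ± 0.08, adjusted p = 0.393). LAMB2 (ENSG00000172037.14) rose by nearly the same amount in both lines, from 15.5 and 18.1 to 28.2 and 26.2 CPM in KRAB-D9 (0.70 ± 0.10, adjusted p = 3.38e-07) and from 17.2 and 18.2 to 28.4 and 28.9 in D2000 (0.70 ± 0.09, adjusted p = 3.75e-08). The difference between those effects was 0.00 ± 0.14 on the log2 scale. LAMA5 (ENSG00000130702.15, chr20:62307955-62367312), the alpha chain of most adult basement membranes, rose from 59.4 and 63.9 to 81.7 and 81.7 CPM with doxycycline in KRAB-D9 (0.41 ± 0.07, adjusted p = 3.39e-05). It rose from 87.8 and 84.6 to 124 and 131 CPM in D2000 (0.56 ± 0.07, adjusted p = 2.13e-08). LAMB3, a chain of skin basement membranes, ran between 0.828 and 5.15 CPM over all libraries. Its one treatment call was with doxycycline in the presence of IFN-alpha, from 3.48 and 3.44 to 2.67 and 1.83 CPM (-0.62 ± 0.22, adjusted p = 0.0407). That call was lost with library totals (adjusted p = 0.064), without the filter on low counts (adjusted p = 0.0661), in a fit of only the 2 groups (adjusted p = 0.0973), and without IFN replicate 1 (-0.61, adjusted p = 0.0991), IFN replicate 2 (-0.63, adjusted p = 0.118) or doxycycline and IFN replicate 2 (-0.37, adjusted p = 0.402). In GENCODE 29, LAMB1 and LAMA5 share 0.86% and 1.71% of their exon bases with DLD and ADRM1 on the opposite strand. In D2000 DLD had a log2 fold change of -0.34 ± 0.04 and ADRM1 of -0.73 ± 0.07, opposite in sign to their partners.

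Of the 10 collagens that sit on the surface of fibrils, 6 were tested, and 5 of these were called higher in D2000 and none lower, against 21.9% and 24.2% of all genes. COL21A1 was not called (-0.36 ± 0.90), and the other 4 did not pass the filter on low counts. These counts are only a description, since low genes that are highest in D2000 can pass the filter through that group. COL9A1, COL9A2, COL9A3 and COL16A1 were highest there. COL14A1 (ENSG00000187955.12) was at 0.0837 and 0.0631 CPM in untreated VPR-D9, at 0.793 and 0.696 in D2000 (3.31 ± 0.54, adjusted p = 2.26e-06) and at 0.232 and 0.397 in D6 (2.06 ± 0.61, adjusted p = 0.0309). Its parental level, 1.80 and 1.88 CPM, was above all of these. The D6 call was lost without untreated VPR-D9 replicate 1 (2.27, adjusted p = 0.133), untreated replicate 2 (1.87, adjusted p = 0.217) or D6 replicate 2 (1.63, adjusted p = 0.301), and in a fit of only the 2 groups (adjusted p = 0.203). In KRAB-D9 COL14A1 was lower with doxycycline and IFN-alpha, at 0.470 and 0.689 CPM, than with IFN-alpha alone, at 2.06 and 1.14 (-1.44 ± 0.41, adjusted p = 0.00857). That call was lost without IFN replicate 1 (-0.98, adjusted p = 0.165) or doxycycline and IFN replicate 1 (-1.19, adjusted p = 0.115). COL9A2 and COL9A3, chains of the cartilage collagen type IX, rose in D2000. COL9A2 went from 0.284 and 0.695 to 2.07 and 1.71 CPM (1.94 ± 0.46, adjusted p = 0.000556). COL9A3 went from 1.89 and 1.41 to 3.56 and 3.48 CPM (1.10 ± 0.38, adjusted p = 0.0152). The COL9A3 call was lost without untreated replicate 2 (0.90, adjusted p = 0.148), D2000 replicate 1 (1.08, adjusted p = 0.078) or D2000 replicate 2 (1.11, adjusted p = 0.0651). The others called there, COL9A1 and COL16A1, stayed under a group mean of 1 CPM in every group, as did COL8A2 and LAMC1, which were called in at least 1 comparison.

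Fibrillar collagen chains were few and low. COL11A2 (ENSG00000204248.12), of cartilage fibrils, was at 1.37 and 1.85 CPM in untreated VPR-D9 and at 3.64 and 3.27 in D2000 (1.10 ± 0.28, adjusted p = 0.00118). COL5A1, which starts fibril assembly, was at 0.0837 and 0.0789 CPM in untreated VPR-D9 and at 0 and 0.0151 in D2000. These are 10 counts against 1, a ratio of 0.0892 with a 95% counting interval of 0.00206 to 0.627. Its call (adjusted p = 0.0258) was lost with DESeq2 (adjusted p = 0.0567), without untreated replicate 1 (adjusted p = 0.0716), untreated replicate 2 (adjusted p = 0.0643) or D2000 replicate 1 (adjusted p = 0.188), and in a fit of only the 2 groups (adjusted p = 0.222). Without D2000 replicate 2 the call held (adjusted p = 0.0318). D6, with 13 counts, was above D2000 (adjusted p = 0.0049; ratio 17.99, counting interval 2.702 to 765), which was lost without D2000 replicate 1 (adjusted p = 0.0707) and in a fit of only the 2 groups (adjusted p = 0.107). COL3A1, a chain of extensible tissues, was at 1.29 and 1.11 CPM in untreated VPR-D9, 2.18 and 2.18 in D2000 and 1.16 and 1.40 in D6, and neither treatment was called. In KRAB-D9 it had 8 counts untreated, 0 with doxycycline and 12 with doxycycline and IFN-alpha. Taking 3 counts over the group as the floor, doxycycline left it at no more than 0.36 of the untreated level (adjusted p = 0.0224), and IFN-alpha on top raised it at least 3.72-fold (adjusted p = 0.0341). Both calls were lost when either doxycycline replicate was left out (adjusted p of 0.111 and 0.114, and of 0.207 and 0.208) and in a fit of only the 2 groups (adjusted p = 0.221 and 0.28). The first was also lost without untreated replicate 2 (adjusted p = 0.384), and the second without either doxycycline and IFN replicate (adjusted p of 0.101 and 0.106). COL5A2 was between 0.313 and 1.32 CPM in every library, and was lower in D6 than in D2000 (-1.27 ± 0.46, adjusted p = 0.0247). That was lost without D2000 replicate 1 (-0.60, adjusted p = 0.456) or D6 replicate 2 (-0.998, adjusted p = 0.193).

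The 2 multiplexins, basement-membrane collagens with interrupted helices, differed from each other. COL15A1 (ENSG00000204291.11, chr9:98943179-99070792) was at 7.90 and 8.27 CPM in untreated VPR-D9, at 1.98 and 2.24 in D2000 (-1.94 ± 0.15, adjusted p = 1.72e-14) and at 6.10 and 5.16 in D6 (-0.52 ± 0.13, adjusted p = 0.0113). In KRAB-D9 doxycycline took it from 16.9 and 21.2 to 13.2 and 14.7 CPM (-0.45 ± 0.12, adjusted p = 0.00442), and with IFN-alpha from 16.7 and 18.4 to 12.6 and 12.8 (-0.47 ± 0.12, adjusted p = 0.00358). The smaller effects rested on single libraries. The D6 call was lost without untreated VPR-D9 replicate 1 (-0.55, adjusted p = 0.052), replicate 2 (-0.49, adjusted p = 0.109) or D6 replicate 2 (-0.41, adjusted p = 0.21). The KRAB-D9 call was lost without untreated replicate 2 (-0.28, adjusted p = 0.192) or doxycycline replicate 1 (-0.37, adjusted p = 0.0816), and the call with IFN-alpha without IFN replicate 2 (-0.39, adjusted p = 0.0538). COL18A1 (ENSG00000182871.16, chr21:45405165-45513720), the source of the fragment endostatin, had the highest mean CPM of the members over the 18 libraries pooled, with 28.4 to 235 CPM. In untreated parental cells it was below LAMA5, FN1, LTBP1 and COL6A5, and in D2000 it was below LAMA5. It rose in D2000 from 84.8 and 81.7 to 113 and 123 CPM (0.50 ± 0.13, adjusted p = 0.0111). That call was lost without untreated replicate 2 (0.47, adjusted p = 0.064) or D2000 replicate 2 (0.44, adjusted p = 0.0684). In GENCODE 29 COL18A1 shares 16.4% of its exon bases with SLC19A1 on the opposite strand, which had a log2 fold change of -1.53 ± 0.06 in D2000. Among the other collagens of at least 1 CPM, the neuronal transmembrane collagen COL25A1 was at 0.937 and 0.932 CPM in untreated KRAB-D9 and at 2.95 and 1.60 with doxycycline (1.28 ± 0.38, adjusted p = 0.0106). That was lost without untreated replicate 1 (1.28, adjusted p = 0.0661), untreated replicate 2 (1.28, adjusted p = 0.0655) or doxycycline replicate 1 (0.77, adjusted p = 0.285). The transmembrane COL23A1, COL7A1 of anchoring fibrils, COL21A1 and the laminin chain LAMA4 were not called in any treatment comparison.

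Comparisons that share no library can be set against each other. Of the 15 genes called with doxycycline in KRAB-D9, 10 were called in the same direction with IFN-alpha present and none in the opposite direction (66.7% of the first list and 83.3% of the second, against 64.5% and 71.6% over all genes). They were COL4A5, COL6A3, COL6A5, COL15A1, LAMA5, LAMB2, FN1, FBLN2, LTBP1 and LOXL4. Between doxycycline in KRAB-D9 and D2000 in VPR-D9, 10 were called in the same direction (66.7% and 45.5%, against 62.1% and 33.3% over all genes). COL6A3, LTBP1 and the low COL16A1 were called in opposite directions, though the D2000 call of LTBP1 was lost in 4 alternative settings. The difference between the 2 effects was itself called for 17 of the 42, 12 with the more positive effect in D2000 and 5 with the more negative, against 12.2% and 19.1% of all genes. With library totals the split was 17 and 4, and the share of positive differences among calls over all genes went from 38.9% to 63.2%. They included FBLN2 (4.08 ± 0.55, adjusted p = 1.11e-07), LOXL4 (3.42 ± 0.71, adjusted p = 0.000367) and COL6A3 (2.58 ± 0.19, adjusted p = 2.14e-14). Without untreated VPR-D9 replicate 1 the LOXL4 difference was 5.16. FN1, COL6A5, LAMA5 and LAMB2 were called in both lines with no called difference, of 0.32 ± 0.13, 0.06 ± 0.09, 0.16 ± 0.10 and 0.00 ± 0.14.

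**Figure D4:**
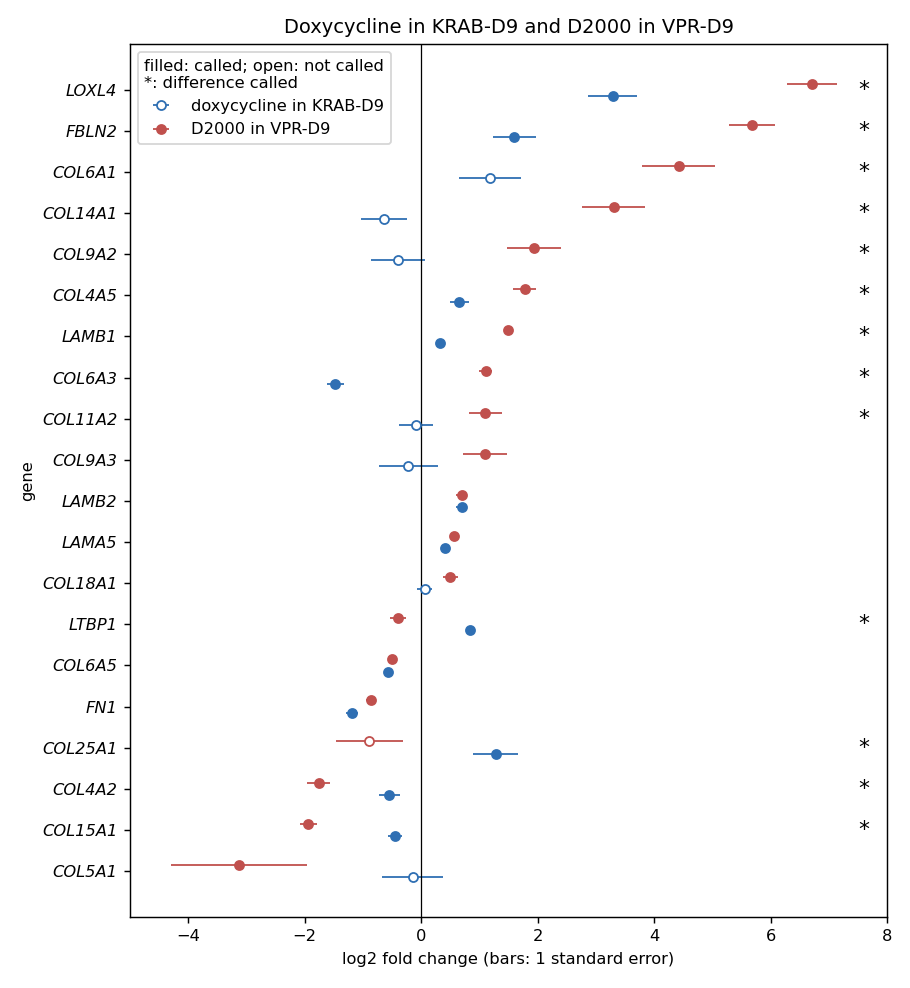
Log2 fold changes (points) with 1 standard error (bars) for doxycycline in KRAB-D9 (blue) and D2000 in VPR-D9 (red), for the 20 genes of at least 1 CPM that were called in either and had counts in all 4 groups; filled points were called, and a star marks a called difference between the effects. COL6A3 and LTBP1 have called effects of opposite sign, and LOXL4 and FBLN2 lie furthest to the right. The D2000 call of LTBP1 was lost in some alternative settings.

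D6 and D2000 differed in 19 of the 42 tested matrix genes (45.2%, against 21.7% of all genes called higher and 18.8% lower). SAMD9 in D6 differed from D2000 by -0.02 ± 0.05 on the log2 scale (adjusted p = 0.821). Over the same libraries LOXL4 had a log2 difference, D6 against D2000, of -5.36 ± 0.38 (adjusted p = 5.76e-12), and FBLN2 of -3.90 ± 0.34 (adjusted p = 1.98e-12). COL6A1 had -2.60 ± 0.54 (adjusted p = 0.00012), COL4A5 -1.68 ± 0.20 (adjusted p = 5.66e-09), COL6A3 -1.11 ± 0.11 (adjusted p = 8.45e-11) and LAMB1 -1.004 ± 0.07 (adjusted p = 5.28e-15). LAMB2 (-0.61 ± 0.09, adjusted p = 7.12e-07), COL9A3 (-1.56 ± 0.39, adjusted p = 0.00102) and LAMA5 (-0.39 ± 0.07, adjusted p = 1.68e-05; -0.58 with library totals) were lower as well. COL9A2 (-1.53 ± 0.46, adjusted p = 0.00618), COL11A2 (-0.86 ± 0.28, adjusted p = 0.0123) and COL14A1 (-1.25 ± 0.45, adjusted p = 0.0239) were called lower, and each was lost without D2000 replicate 1 (adjusted p of 0.052, 0.0797 and 0.0984) or D6 replicate 1 (adjusted p of 0.0517, 0.121 and 0.226). Higher in D6 than in D2000 were COL4A2 (1.62 ± 0.20, adjusted p = 1.61e-08), COL15A1 (1.42 ± 0.15, adjusted p = 3.67e-10), COL6A5 (0.60 ± 0.07, adjusted p = 6.74e-10) and FN1 (0.52 ± 0.09, adjusted p = 8.25e-06; 0.32 with library totals). The summed erythroid markers moved with these genes, at 1414 CPM in untreated VPR-D9, 671 in D2000 and 1275 in D6. Of these sums TFRC made up 655, 221 and 595 CPM in the same order. From untreated VPR-D9 to D2000, TAL1 hardly changed (169 to 167 CPM) and HBE1 was higher (1.563 to 2.101). The other erythroid markers listed were lower in D2000. The lymphoid and myeloid markers, of which 5 of the 7 in the table averaged at least 1 CPM, summed to 122, 327 and 170 CPM, with ITGAM at 7.87, 192 and 57.6. The summed megakaryocyte markers also moved, at 13.9, 42.4 and 21.6 CPM, of which 3 of the 5 in the table averaged at least 1 CPM. The fibroblast and stromal markers summed to 10.6, 23.5 and 14.7 CPM, of which S100A4 made up 4.71, 14.9 and 10.1. In KRAB-D9 doxycycline went with a change of the megakaryocyte sum from 34.5 to 10.6 CPM, of the lymphoid and myeloid sum from 62.5 to 34.4, of the stromal sum from 8.69 to 11.7 and of the erythroid sum from 3201 to 3784. Within the megakaryocyte sum ITGA2B went from 18.2 to 6.72 CPM and GP6 from 14.6 to 2.28. Epithelial markers, of which 4 of the 6 in the table averaged at least 1 CPM, summed to 823.5 CPM untreated and 608 with doxycycline. In untreated VPR-D9, D2000 and D6 they summed to 943.5, 889 and 924 CPM. The part of these markers in the matrix changes was not tested. Fewer cells of a type and less RNA per cell cannot be told apart in these bulk libraries.

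IFN-alpha called 2.38% of the tested matrix genes higher in parental cells and none lower, against 3.03% and 1.31% of all genes. In KRAB-D9 it called 4.76% higher and none lower, against 3.98% and 2.42%. LAMB1 went from 26.7 and 28.8 to 33.6 and 33.7 CPM in parental cells (0.28 ± 0.07, adjusted p = 0.0177) and from 18.5 and 18.1 to 26.0 and 22.9 in KRAB-D9 (0.41 ± 0.08, adjusted p = 0.000393). In both lines the libraries with IFN-alpha were above those without. The parental call was lost without untreated replicate 1 (0.23, adjusted p = 0.275), IFN replicate 1 (0.28, adjusted p = 0.0807) or IFN replicate 2 (0.28, adjusted p = 0.131). COL6A5 in KRAB-D9 went from 40.2 and 37.8 to 46.4 and 44.5 CPM (0.22 ± 0.07, adjusted p = 0.0397). It was lost without untreated replicate 1 (0.26, adjusted p = 0.0693), untreated replicate 2 (0.17, adjusted p = 0.306) or IFN replicate 1 (0.19, adjusted p = 0.188), without the filter on low counts (adjusted p = 0.0681) and in a fit of only the 2 groups (adjusted p = 0.211). In parental cells COL6A5 was at 36.0 and 34.9 CPM untreated and 30.5 and 31.5 with IFN-alpha, which was not called. No matrix gene was called in the test of whether doxycycline changed the response of KRAB-D9 to IFN-alpha (edgeR, 0 of 42, against 0.0632% of all genes called higher and 0.0948% lower). At an unadjusted p under 0.05 there were 4, and DESeq2 called 0. The smallest adjusted p was 0.157, for COL6A3 and COL3A1. LAMB1's value there was -0.23 ± 0.11.

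The untreated engineered lines differed from parental cells in many matrix genes. COL18A1 was at 28.6 and 32.3 CPM in parental cells, 84.8 and 81.7 in VPR-D9 and 216 and 225 in KRAB-D9, log2 differences from parental of 1.45 ± 0.15 (adjusted p = 1.88e-05) and 2.86 ± 0.15 (adjusted p = 1.3e-07). COL23A1 was at 5.00 and 4.75 CPM in untreated KRAB-D9, at 0.396 and 0.263 in parental cells (3.87 ± 0.34, adjusted p = 5.93e-12) and at 0.418 and 0.410 in VPR-D9. COL5A1 was at 2.61 and 2.73 CPM in parental cells, 0.187 and 0.819 in KRAB-D9 (-2.43 ± 0.49, adjusted p = 0.000125; -3.82 without KRAB-D9 replicate 2) and 0.0837 and 0.0789 in VPR-D9 (-4.998 ± 0.59, adjusted p = 5.06e-09). COL14A1 was 24.4-fold lower in VPR-D9 than in parental cells (adjusted p = 2.13e-09), and COL4A5 4.03-fold lower (adjusted p = 7.98e-11). COL6A3 was 3.21-fold higher in VPR-D9 (adjusted p = 3.25e-14), and LAMB3 was higher in both lines, 4.91-fold in KRAB-D9 (adjusted p = 3.69e-10) and 3.94-fold in VPR-D9 (adjusted p = 6.6e-09). FBLN2 was at 0.0540 and 0.0202 CPM in parental cells and above that in untreated KRAB-D9 (3.76 ± 0.65, adjusted p = 1.4e-05). In untreated VPR-D9 its value was 2.29 ± 0.76 (adjusted p = 0.0148), lost without parental replicate 2 (1.81, adjusted p = 0.134) or VPR-D9 replicate 1 (2.12, adjusted p = 0.075), and in a fit of only the 2 groups (2.31, adjusted p = 0.18). KRAB-D9 without treatment was also above parental cells for COL7A1 (1.46 ± 0.29, adjusted p = 0.000117), COL11A2 (1.80 ± 0.32, adjusted p = 1.86e-05) and LAMB2 (0.65 ± 0.10, adjusted p = 2.62e-06). COL9A2 (1.55 ± 0.50, adjusted p = 0.0168), COL4A2 (0.53 ± 0.18, adjusted p = 0.0242) and COL15A1 (0.41 ± 0.12, adjusted p = 0.00782) were called there too, and each of these 3 was lost when a library was left out. Without KRAB-D9 replicate 2 they had 1.56 (adjusted p = 0.0542), 0.39 (adjusted p = 0.228) and 0.24 (adjusted p = 0.25). Without parental replicate 2 they had 1.41 (adjusted p = 0.118), 0.59 (adjusted p = 0.0632) and 0.26 (adjusted p = 0.218). Without parental replicate 1 COL9A2 had 1.72 (adjusted p = 0.0614) and COL4A2 0.47 (adjusted p = 0.15), and without KRAB-D9 replicate 1 COL9A2 had 1.54 (adjusted p = 0.0632). LTBP1 (-0.32 ± 0.07, adjusted p = 0.000366), LAMB1 (-0.60 ± 0.08, adjusted p = 5.25e-08) and LAMA5 (-0.38 ± 0.07, adjusted p = 7.99e-05) were lower in untreated KRAB-D9.

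In untreated VPR-D9 the other matrix genes higher than in parental cells were COL3A1 (3.16 ± 0.60, adjusted p = 4.45e-05; 4.81 without parental replicate 1), COL9A3 (2.04 ± 0.43, adjusted p = 0.000177) and LAMB2 (0.72 ± 0.10, adjusted p = 1.38e-07). COL11A2 (1.16 ± 0.32, adjusted p = 0.00352) and COL6A5 (0.22 ± 0.07, adjusted p = 0.00743) were called higher as well. Without parental replicate 2 they had 1.02 (adjusted p = 0.0508) and 0.20 (adjusted p = 0.071), and without VPR-D9 replicate 2 0.93 (adjusted p = 0.0678) and 0.20 (adjusted p = 0.0575). Lower were COL25A1 (-2.28 ± 0.46, adjusted p = 8.22e-05), LAMA4 (-1.23 ± 0.31, adjusted p = 0.00118) and COL15A1 (-0.82 ± 0.12, adjusted p = 9.32e-07). COL21A1 (-2.60 ± 0.84, adjusted p = 0.0126) was lost without parental replicate 2 (-2.21, adjusted p = 0.107) or VPR-D9 replicate 2 (-1.59, adjusted p = 0.174), and had -8.68 without VPR-D9 replicate 1. LAMB1 (-0.27 ± 0.07, adjusted p = 0.00349) was lost without parental replicate 2 (-0.21, adjusted p = 0.0737).

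The wider matrix machinery was read from lists of genes that are not themselves members. Of 25 tested enzymes that make and process collagen, 16 were called in D2000, 8 in each direction, against 21.9% of all genes higher and 24.2% lower. They included the lysyl hydroxylase PLOD1, from 95.3 ± 0.156 to 252 ± 3.08 CPM (SD, n = 2; log2 1.40 ± 0.05, adjusted p = 6.3e-25), and the prolyl hydroxylase subunit P4HA1, from 39.0 ± 2.65 to 105 ± 5.84 (1.42 ± 0.07, adjusted p = 3.46e-19). The collagen galactosyltransferase COLGALT1 fell from 209 ± 7.11 to 108 ± 1.17 CPM (-0.96 ± 0.05, adjusted p = 1.94e-20). With doxycycline in KRAB-D9 12 of the 25 were called, 3 higher and 9 lower, against 12% and 12.7%. The procollagen protease ADAMTS14 fell from 59.7 ± 2.65 to 36.8 ± 3.15 CPM (-0.70 ± 0.06, adjusted p = 1.34e-11) and the prolyl isomerase PPIB from 187 ± 5.43 to 142 ± 9.07 (-0.39 ± 0.04, adjusted p = 5.87e-09). CRTAP, of the prolyl 3-hydroxylation complex, rose from 145 ± 9.20 to 200.2 ± 4.99 CPM (0.47 ± 0.04, adjusted p = 6.12e-11). With IFN-alpha in parental cells 7 of the 25 were called, all higher, against 3.03% of all genes higher. IFN-alpha called 3 in KRAB-D9, all higher (3.98% of all genes), and 5 higher and 1 lower in KRAB-D9 with doxycycline (3.12% and 1.77%). Among the parental calls were ADAMTS14 (58.2 ± 1.02 to 73.8 ± 4.002 CPM, 0.34 ± 0.06, adjusted p = 0.000101), P4HB (424 ± 3.91 to 495 ± 3.23, 0.22 ± 0.04, adjusted p = 0.000307) and the collagen chaperone SERPINH1 (228 ± 6.06 to 261 ± 1.69, 0.19 ± 0.04, adjusted p = 0.00162).

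Of 24 tested matrix receptors, 15 were called higher and 2 lower in D2000, against 21.9% and 24.2% of all genes. The integrin subunit ITGA5, of the fibronectin receptor, rose from 63.7 ± 1.52 to 162 ± 2.32 CPM (1.35 ± 0.06, adjusted p = 2.33e-22), and with doxycycline in KRAB-D9 it fell from 63.7 ± 0.431 to 42.8 ± 3.07 (-0.58 ± 0.06, adjusted p = 4.76e-10). BCAM, the receptor for the LAMA5 chain, rose in both, from 2.48 ± 0.137 to 31.0 ± 1.61 CPM in D2000 (3.64 ± 0.18, adjusted p = 9.1e-20) and from 1.30 ± 0.289 to 4.72 ± 0.853 in KRAB-D9 (1.85 ± 0.21, adjusted p = 6.27e-09). The collagen receptor kinase DDR1 rose in D2000 from 54.5 ± 3.93 to 123 ± 1.22 CPM (1.18 ± 0.06, adjusted p = 8.57e-19) and with IFN-alpha in parental cells from 34.3 ± 2.72 to 45.7 ± 1.92 (0.41 ± 0.07, adjusted p = 5.25e-05). The platelet collagen receptor GP6 fell with doxycycline in KRAB-D9 from 14.6 ± 0.464 to 2.28 ± 0.342 CPM (-2.68 ± 0.17, adjusted p = 1.81e-15). There, 3 of the 24 receptors were called higher and 8 lower (12% and 12.7% of all genes), and with IFN-alpha in parental cells 2 were called, both higher (3.03% of all genes).

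Of 26 tested other basement membrane and matrix proteins, 10 were called higher and 2 lower in D2000 (46.2% called, against 21.9% of all genes higher and 24.2% lower), and 5 higher and 4 lower with doxycycline in KRAB-D9 (12% and 12.7% of all genes). LTBP3, a relative of LTBP1, rose in both: from 43.8 ± 1.69 to 157 ± 9.35 CPM in D2000 (1.84 ± 0.07, adjusted p = 2.15e-23) and from 37.4 ± 1.29 to 48.6 ± 1.35 in KRAB-D9 (0.38 ± 0.07, adjusted p = 7.71e-05). ECM1 rose in D2000 (0.62 ± 0.06, adjusted p = 2.31e-11) and fell with doxycycline in KRAB-D9 from 44.9 ± 1.43 to 22.2 ± 0.234 CPM (-1.02 ± 0.07, adjusted p = 3.41e-15). THBS3, a thrombospondin, rose in D2000 (0.99 ± 0.14, adjusted p = 1.21e-07), and the giant matrix protein HMCN1 rose with doxycycline in KRAB-D9 from 4.15 ± 0.144 to 10.5 ± 0.175 CPM (1.34 ± 0.19, adjusted p = 8.71e-07). AGRN, a heparan sulfate proteoglycan that binds laminin, was the 1 of the 26 called with IFN-alpha in parental cells, from 182 ± 1.77 to 336 ± 17.5 CPM (0.89 ± 0.09, adjusted p = 4.96e-05). Of 18 tested proteases and inhibitors, 9 were called higher and 2 lower in D2000, against the same 21.9% and 24.2%. With doxycycline in KRAB-D9 0 were called higher and 6 lower, including the inhibitor TIMP1 (151 ± 5.57 to 99.8 ± 4.37 CPM, -0.60 ± 0.05, adjusted p = 2.66e-11), the urokinase PLAU (-1.44 ± 0.25, adjusted p = 2.59e-05) and MMP15 (-0.35 ± 0.08, adjusted p = 0.000642). In D2000 TIMP1 had 0.25 ± 0.05 (adjusted p = 0.000119), PLAU -0.97 ± 0.19 (adjusted p = 6.44e-05) and its receptor PLAUR 0.55 ± 0.11 (adjusted p = 4.59e-05). With IFN-alpha in parental cells MMP17 was the 1 called (0.70 ± 0.20, adjusted p = 0.0325).

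Of 13 tested TGF-beta ligands, receptors and mediators, 4 were called higher and 2 lower in D2000 (46.2% called, against 21.9% of all genes higher and 24.2% lower), and 2 higher and 3 lower with doxycycline in KRAB-D9 (12% and 12.7% of all genes). The receptor TGFBR1 fell in both, from 141 ± 2.16 to 98.1 ± 3.75 CPM in D2000 (-0.52 ± 0.05, adjusted p = 2.18e-12) and from 136 ± 1.47 to 101 ± 3.64 in KRAB-D9 (-0.44 ± 0.05, adjusted p = 2.51e-09). NRROS, which like LTBP1 tethers latent TGF-beta, also fell in both, with log2 fold changes of -1.15 ± 0.11 in D2000 (adjusted p = 3.43e-11) and -0.65 ± 0.11 in KRAB-D9 (adjusted p = 1.16e-05). The ligand TGFB1 fell with doxycycline in KRAB-D9 from 200.4 ± 11.1 to 160 ± 6.63 CPM (-0.33 ± 0.06, adjusted p = 5.85e-05), and TGFB3 rose in D2000 from 0.994 ± 0.133 to 3.71 ± 0.0580 (1.90 ± 0.29, adjusted p = 5.38e-07).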

How the data were processed

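Poly(A)-selected stranded RNA libraries of K562 cells were counted by the authors, and the deposited table holds raw counts per gene for 18 libraries, with a gene length in bases, per the file headers. Per the submitters' processing notes, featureCounts 2.0.2, STAR 2.7.8a, cutadapt 2.10 and FastQC 0.11.9 were used, with the GRCh38.p13 build. No source used here gives the annotation release, strand setting or treatment of multimapping reads, so counts of overlapping genes are uncertain.

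Groups came from the sample labels. Genes passing edgeR's filterByExpr by group (22143 of 41285) entered 1 quasi-likelihood fit (edgeR 4.0.16, R 4.3.3) of 9 group means with TMM scaling, robust estimates and 9 residual degrees of freedom. The 12 comparisons were contrasts of that fit, adjusted by Benjamini-Hochberg over all genes and called at an adjusted p under 0.05. Standard errors were derived from the F statistics. The common biological coefficient of variation was 0.0569. Depth was 32.7 M to 63 M counts, and counting intervals (95%) and the floor of 3 counts cover counting error only. Alternatives were DESeq2 1.42.0 (size factors and test), library totals, other filters, a fit of only the groups compared, a replicate block and leaving out each library. The code was tested on simulated data. The table held 0 columns of other series.

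Matrix genes called in at least 1 comparison and reaching a group mean of 1 CPM were named; values per library were given for those with a called log2 change of at least 1 and for the 10 highest, and up to 3 called genes were named per wider list. The members, lists and markers were chosen with earlier results of these data known. Promoter windows came from RefSeq (GRCh38.p14), and gene coordinates from the deposited table. A few genes are not reported here.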

Additional observations from a re-analysis of the deposited data

Results flagged for a closer look

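The effect of D2000 in VPR-D9 and the effect of doxycycline in KRAB-D9 differed, by edgeR's test of the difference itself, for 15 matrix genes of at least 1 CPM. The values are log2 differences, D2000 effect minus KRAB-D9 doxycycline effect, with adjusted p-values over all genes. The more positive effect was in D2000 for FBLN2 (4.08, adjusted p = 1.11e-07), LOXL4 (3.42, adjusted p = 0.000367), COL14A1 (3.95, adjusted p = 1.02e-05), COL6A3 (2.58, adjusted p = 2.14e-14), LAMB1 (1.16, adjusted p = 1.03e-11) and COL4A5 (1.12, adjusted p = 0.000746). The same held for COL6A1 (3.24, adjusted p = 0.00171), COL9A2 (2.33, adjusted p = 0.0048) and COL11A2 (1.19, adjusted p = 0.0195). COL3A1 had 6.07 (adjusted p = 0.00642), a fitted value that depends on the prior count because doxycycline left 0 counts in KRAB-D9. The more negative effect was in D2000 for COL15A1 (-1.49, adjusted p = 3.28e-08), LTBP1 (-1.24, adjusted p = 1.27e-08), COL4A2 (-1.21, adjusted p = 0.00043), COL25A1 (-2.17, adjusted p = 0.0126) and LAMA4 (-1.14, adjusted p = 0.0445).

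Some of these differences rested on 1 library. COL3A1 had 4.05 (adjusted p = 0.241) and COL11A2 1.10 (adjusted p = 0.0674) without untreated KRAB-D9 replicate 2. Without untreated KRAB-D9 replicate 1 COL6A1 had 2.15 (adjusted p = 0.0977). Without KRAB-D9 doxycycline replicate 1 COL11A2 had 0.84 (adjusted p = 0.155), COL9A2 1.72 (adjusted p = 0.0531) and COL25A1 -1.66 (adjusted p = 0.0902). Without untreated VPR-D9 replicate 1 COL11A2 had 0.99 (adjusted p = 0.104) and COL9A2 1.84 (adjusted p = 0.0507), while LOXL4 had 5.16 and was still called. Without D2000 replicate 1 COL11A2 had 1.11 (adjusted p = 0.0664). COL25A1 had -1.90 (adjusted p = 0.0899) without untreated VPR-D9 replicate 2 and -1.82 (adjusted p = 0.076) without D2000 replicate 2. LAMA4 was called in neither treatment by itself, and its difference was lost in 9 settings: with library totals (adjusted p = 0.104), without the filter on low counts (0.111), in a fit of only these groups (0.0908), and without untreated VPR-D9 replicate 1 (0.0588) or 2 (0.127), untreated KRAB-D9 replicate 2 (0.157), or KRAB-D9 doxycycline replicate 1 (0.0815) or 2 (0.0824). It was -0.74 (adjusted p = 0.258) without D2000 replicate 2 and -1.72 (adjusted p = 0.00643) without D2000 replicate 1. The lines differ in the induced protein and in their untreated levels, so the treatment and the line cannot be told apart.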

How the results depend on the processing

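Of 122 called results for single matrix genes, 80 were called under every alternative that tested them and 42 were lost under at least 1: 31 of them only when a library was left out and 11 under another setting. Not every alternative tested every result: the filter at a mean of 1 CPM kept 102 of the 122, and the DESeq2 test covered 121. None changed sign. With 1 library left in a group, that library is assumed to vary like the other groups. The number of matrix genes called with D6 was 5 in the reported fit and 1 to 3 when a library was left out. With IFN-alpha in parental cells, 1 was called in the reported fit, 2 with DESeq2, 4 in a fit of only the groups compared, and 0 to 1 when a library was left out. With IFN-alpha in KRAB-D9, 2 were called, against 1 in a fit of only those groups and 1 to 4 when a library was left out. With IFN-alpha on top of doxycycline, 1 was called, COL3A1 higher, against 0 with a filter at a mean of 1 CPM and 0 in a fit of only those groups. The DESeq2 test also called 1, but lower, so it was not the same call. For the interaction of IFN-alpha and doxycycline, 0 were called, against 1 with no filter and 0 to 2 when a library was left out. A fit without the KRAB-D9 IFN group, chosen after seeing the data, called 2 with IFN-alpha in parental cells. The cause of these shifts was not tested.

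The labels give the groups shared replicate numbers. Over 36 pairs of groups the correlation of same-numbered deviations ran from -0.207 to 0.299 (median 0.00587), and 5 were over 0.1. These values cannot tell whether equal numbers share a culture or day, on which the labels are silent. With the replicate block, 15 were called for doxycycline in KRAB-D9, 12 with IFN-alpha present, 22 for D2000, 5 for D6, 20 for D6 against D2000 and 16 for the difference between lines. The block gave 1, 2 and 1 for IFN-alpha in parental cells, KRAB-D9 and KRAB-D9 with doxycycline, 17 and 20 for the untreated lines, and 0 for the interaction. Depth limits the genes near 0, where a few counts decide a call.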
